A study of Mus musculus with 10 samples.

Results

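Protocadherins were the genes examined here: every gene whose symbol starts with Pcdh and whose mean over the 10 libraries was at least 0.5 CPM (reads per 1000000 reads counted on genes). Of 71 such symbols, 65 passed this limit, among 15081 of 24421 genes that passed it in the whole table. The 65 were 10 of 15 Pcdha genes, 21 of 22 Pcdhb genes, all 22 Pcdhg genes and all 12 genes that lie outside the clusters. Just inside the limit were Pcdh12 at 0.657 CPM and Pcdha1 at 1.04 CPM, and just outside were Pcdha8 at 0.325 CPM and Pcdhb1 at 0.209 CPM.

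The RNA came from the ventral hippocampus (vHpc) of adult female mice, all of which had been ovariectomized (OVX). WT mice carried the Val allele of BDNF (VV), and Het-Met mice carried 1 Met allele of the BDNF Val66Met variant (VM) in all of their cells. After 2 weeks of recovery from surgery the mice drank, for 6 weeks, either a 300 nM E2 solution, about 0.7 µg per day, or vehicle, and both solutions held 0.1% ethanol. The groups were vehicle-treated OVX WT mice (2 libraries, replicates 1 and 3), E2-treated OVX WT mice (2 libraries, replicates 1 and 2), vehicle-treated OVX Het-Met mice (3 libraries) and E2-treated OVX Het-Met mice (3 libraries). The RNA of 2 animals was pooled for every library, so the spread between libraries is a spread between pools.

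Protocadherins are cadherin-repeat adhesion proteins of the cell surface, and the brain is their main site of expression. The clustered genes lie in a row on a single chromosome: each Pcdha and Pcdhg gene joins a large first exon of its own, which codes for the extracellular part, to constant exons that all genes of that cluster share, whereas Pcdhb genes are single-exon genes with no constant part. A neuron uses a few of the alternative first exons, chosen by promoter methylation, CTCF and cohesin, and the combination gives its surface an identity through like-with-like binding, which lets its own branches avoid each other. The C-type genes (Pcdhac1, Pcdhac2, Pcdhgc3, Pcdhgc4 and Pcdhgc5) sit at the ends of the alpha and gamma clusters and are used more evenly by neurons than the alternative ones. The non-clustered genes, mostly of the delta group, are scattered over other loci and act in synapse formation, axon sorting and cell migration.

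Libraries held from 19820184 to 23267410 reads on genes, and replicates of a group differed by more than sampling noise, with chi-square values of 3.40 to 14.1 per degree of freedom. Neuronal markers were present in every library, the summed level of 6 markers of hippocampal excitatory neurons lying between 6003 and 7583 CPM. The libraries stood apart in choroid plexus tissue. The summed level of 9 choroid plexus markers was 146 and 1066 CPM in vehicle-treated OVX WT mice, 2472 and 1882 CPM in E2-treated OVX WT mice, 3240, 1449 and 1912 CPM in vehicle-treated OVX Het-Met mice and 1532, 428 and 256 CPM in E2-treated OVX Het-Met mice. In a bulk sample, fewer cells of a type and less RNA per cell cannot be told apart. A fit with this marker level as a covariate was added after the data had been seen, and its values stand beside each comparison.

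How much of a protocadherin can be counted on its own differed strongly by class. In the GENCODE vM21 annotation of GRCm38, the 14 annotated Pcdha genes ran from 36930184 to 37187661 on chromosome 18, the 22 Pcdhb genes from 37264938 to 37524479 and the 22 Pcdhg genes from 37661793 to 37841873. Of the exon bases of a gene, a median of 46.5% belonged to no other gene on the same strand for the 8 tested alternative Pcdha genes, 55.2% for the 19 Pcdhga and Pcdhgb genes and 60.4% for the 5 C-type genes, against 100% for Pcdhb and for the non-clustered genes. The same split appeared in sequence. A median of 58.0% of the 75-base words of an alternative Pcdha transcript occurred in another gene too, 48.0% for Pcdhga and Pcdhgb, 1.26% for Pcdhb and 0% for the non-clustered genes. Single genes stood far from these medians, with 98.4% shared for Pcdhga10, 79.6% for Pcdha11, 71.7% for Pcdhga11 and 62.9% for Pcdhb12. Pcdhgc3 (64.3%) and Pcdhga4 (63.8%) were high too. The levels of all these genes, and their places in the order per kb, are uncertain. How the authors' counting treated a read that fell in a shared exon is not given in the sources used here. Levels below are therefore also given per kb of private exon, that is exon that no other gene on the same strand has. Overlap with genes on the opposite strand was not removed.

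Reads were missing altogether from some alpha genes. Pcdha4, Pcdha6 and Pcdha7 were listed at 0 in all 10 libraries, which allows at most 3 reads, or between 0.129 and 0.151 CPM, in a library by counting error alone. Each of these genes has a companion model whose span runs from near the start of the gene to the end of the gamma cluster. The exons of the companions were not compared with those of the genes. In GENCODE vM21, 494 exon bases of Pcdha4, 2285 of Pcdha6 and 2139 of Pcdha7 belonged to no other gene on the same strand, against 2346 of Pcdha5, which had reads. The 3 companion rows together held few reads: 2 for that over Pcdha4, 1 for that over Pcdha6 and 3 for that over Pcdha7, summed over the libraries. The overlapping spans and the zeros occur together, and whether an overlap removed the reads was not tested.

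The most abundant protocadherins were some of the non-clustered and C-type genes, while others of both classes, such as Pcdh12 and Pcdhac1, were among the lowest. Summed over members, the non-clustered genes made up 65.2% of the protocadherin CPM, Pcdhg 22.0%, Pcdhb 9.57% and Pcdha 3.20%. These shares are not corrected for the bases over which a gene can be counted. The median private exon length was 9630.5 bases for the non-clustered and 3055 bases for the clustered genes. Within the clusters a few genes dominated: Pcdhac2 held 58.4% of the Pcdha sum, Pcdhgc5 25.7% and Pcdhgc3 18.8% of the Pcdhg sum, while the highest beta gene, Pcdhb17, held 11.6% of the Pcdhb sum. Per kb of private exon, the order began with Pcdh20 at 23.4 ± 2.59 CPM (SD over the 10 libraries) and Pcdh9 at 22.8 ± 2.00 CPM, which differed by less than their spread. Pcdhgc5 (18.5 ± 2.74), Pcdhgc3 (18.4 ± 3.22) and Pcdh1 (17.7 ± 3.15 CPM per kb) came next and also differed by less than their spread. Pcdhac2 reached 9.25 ± 1.96 CPM per kb. Of the alternative genes, Pcdhga11 (7.16) and Pcdhga4 (5.83) were highest and Pcdhgb8 (0.767 CPM per kb) lowest in the gamma cluster. In the beta cluster Pcdhb9 (4.82) and Pcdhb17 (3.58) were highest and Pcdhb6 (0.441 CPM per kb) lowest. In the alpha cluster Pcdha12 (1.47) and Pcdha5 (1.17) were highest and Pcdha1 (0.417 CPM per kb) lowest, and Pcdhac1 (0.884 CPM per kb) was the lowest C-type gene. The medians of the alternative genes were 3.31 CPM per kb for gamma, 1.56 for beta and 0.825 for alpha.

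**Figure D1:**
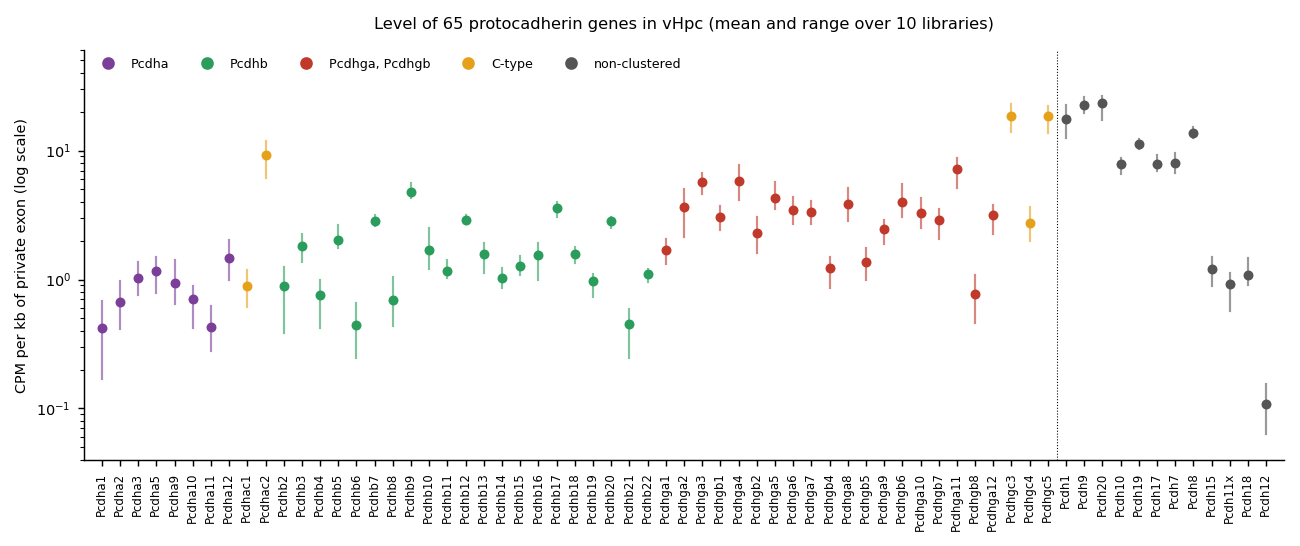
Mean level (points) and range over the 10 libraries (lines) of the 65 tested protocadherin genes, in CPM per kb of exon that no other gene on the same strand has, on a log axis. Clustered genes are in their order along the chromosome and non-clustered genes in order of mean CPM; the C-type genes Pcdhac2, Pcdhgc3 and Pcdhgc5 stand above the alternative genes beside them, and Pcdh12 is lowest.

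The gamma and alpha sums differed more between the group means than the beta sum did. The summed level of the 22 Pcdhg genes was 318 and 373 CPM in vehicle-treated OVX WT mice, 388 and 401 CPM in E2-treated OVX WT mice, 256, 355 and 315 CPM in vehicle-treated OVX Het-Met mice and 314, 308 and 281 CPM in E2-treated OVX Het-Met mice. Both E2-treated OVX WT libraries lay above every other library, and the 2 vehicle groups overlapped. The Pcdha sum had the same order of group means, 52.3 ± 7.34 CPM (SD, n = 2), 57.8 ± 4.58 CPM (n = 2), 43.7 ± 8.87 CPM (n = 3) and 42.9 ± 3.74 CPM (n = 3), and the groups compared overlapped except the genotypes under E2. The Pcdhb sum was 148 ± 6.36, 153 ± 9.45, 137 ± 5.60 and 141 ± 4.07 CPM in the same order. Its genotypes were narrowly apart under both treatments. The lowest WT and highest Het-Met sums were 143.3 and 142.9 CPM under vehicle and 146.1 and 143.7 CPM under E2. The non-clustered sum was 1010 ± 109, 1077 ± 8.68, 938 ± 70.9 and 932 ± 25.9 CPM, with the genotypes apart under E2 and overlapping under vehicle. No test was run on these sums, which rest on the choice of members.

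**Figure D2:**
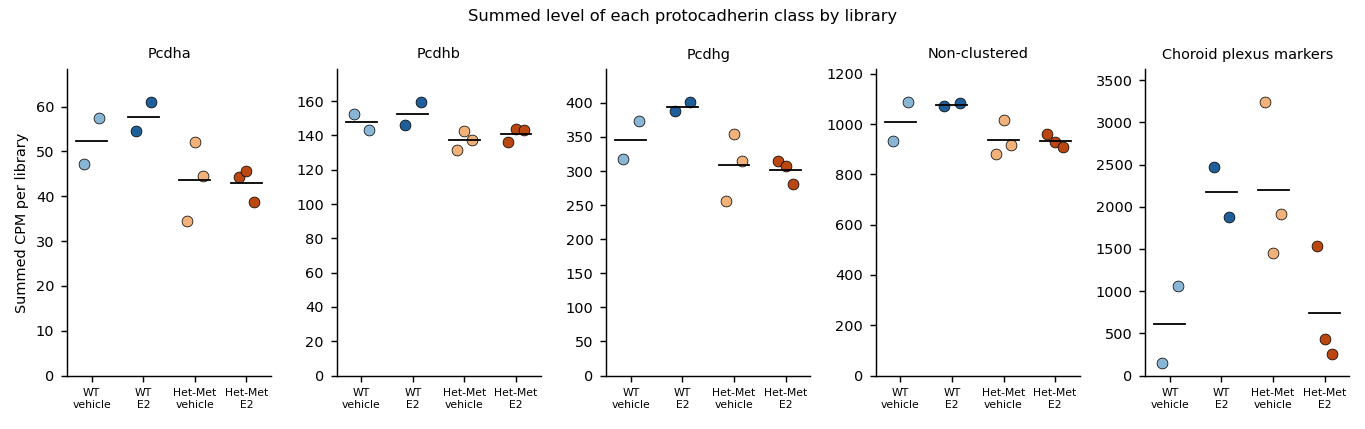
Summed CPM of each protocadherin class and of the 9 choroid plexus markers in every library (points), with the group mean (line). The 2 E2-treated OVX WT libraries lie highest for Pcdhg, at 388 and 401 CPM, the Pcdhb sums stay between 132 and 159 CPM, and the choroid plexus markers range from 146 to 3240 CPM.

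The comparison of Het-Met with WT mice under E2 asks whether the genotypes differ when the hormone is present, and here 59 of 65 protocadherins had a fitted value below 0, that is lower in Het-Met mice, though fewer differed beyond their error. limma called no member at a Benjamini-Hochberg adjusted p under 0.05 with a fold above 1.3, where it called 0.0265% of all genes, and edgeR and DESeq2 on the recovered reads called none either. At an unadjusted p under 0.05, 22 of 65 members were lower and 0 higher, against 5.36% of all genes lower and 6.29% higher. The share was largest in the gamma cluster, with 13 of 22 Pcdhg genes, against 3 of 10 Pcdha, 3 of 21 Pcdhb and 3 of 12 non-clustered genes. The libraries of the genotypes did not overlap, with Het-Met lower, for 37 of 65 members, among them 19 of 22 Pcdhg genes, against 14.7% of all genes. Most Pcdha and most non-clustered genes were apart in this way as well, but few Pcdhb genes. Median log2 fold differences were -0.39 for Pcdhg, -0.35 for Pcdha, -0.05 for Pcdhb and -0.17 for the non-clustered genes, beside 0.03 over all genes tested. All 22 Pcdhg genes had a fitted value below 0, from -0.57 to -0.22, where 42.7% of all genes did. edgeR gave 24 and DESeq2 18 members lower at an unadjusted p under 0.05.

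Among the alternative gamma genes, Pcdhga5 had the smallest p. Its level was 11.2 and 10.8 CPM in vehicle-treated and 14.6 and 14.0 CPM in E2-treated OVX WT mice, and 9.68, 9.23 and 9.79 CPM in vehicle-treated and 11.3, 9.91 and 8.96 CPM in E2-treated OVX Het-Met mice. Both E2-treated OVX WT libraries lay above all others, and the difference from E2-treated OVX Het-Met mice was -0.49 ± 0.12 on the log2(CPM + 0.5) scale (SE, adjusted p = 0.316 by limma). Pcdhgb6 had the same arrangement, with 14.0 and 13.0 CPM in E2-treated OVX WT mice against 9.30, 9.73 and 8.58 CPM in E2-treated OVX Het-Met mice (-0.53 ± 0.14, adjusted p = 0.328 by limma). For Pcdhgb2 the values under E2 were 8.39 and 8.25 CPM in WT and 5.87, 6.22 and 4.41 CPM in Het-Met mice, a difference of -0.57 ± 0.16 (adjusted p = 0.329 by limma). Pcdhga4, the highest alternative gamma gene per kb after Pcdhga11, had 11.4 and 12.1 CPM against 8.27, 9.82 and 6.97 CPM (-0.48 ± 0.16). Pcdhga11 had 23.2 and 21.5 CPM against 18.9, 19.0 and 13.6 CPM (-0.38 ± 0.15), and the lowest gamma gene, Pcdhgb8, 1.97 and 2.71 CPM against 1.76, 1.15 and 1.71 CPM (-0.48 ± 0.21). In all 6 of these genes the genotypes did not overlap under E2.

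The C-type genes were lower in Het-Met mice too. Pcdhgc5, the most abundant clustered gene, had 97.2 and 102 CPM in E2-treated OVX WT mice and 81.8, 75.4 and 70.7 CPM in E2-treated OVX Het-Met mice (-0.39 ± 0.12, adjusted p = 0.334 by limma). Pcdhgc3 had 71.1 and 77.4 CPM against 60.7, 57.5 and 49.3 CPM (-0.41 ± 0.16). Pcdhgc4, on which the survival of many inhibitory neurons depends, had 12.4 and 11.1 CPM against 7.93, 9.13 and 8.01 CPM (-0.47 ± 0.22). The alpha member Pcdhac2, which is needed for the even spacing of serotonergic axons, had 32.5 and 36.0 CPM against 26.4, 26.2 and 20.6 CPM (-0.49 ± 0.19), and Pcdhac1 2.33 and 3.01 CPM against 2.15, 1.94 and 2.13 CPM (-0.29 ± 0.20). All 5 were lower in Het-Met mice with no overlap, 4 of them at an unadjusted p under 0.05.

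The beta genes had a median near 0. Of the 21 tested, 17 had a fitted value below 0 under E2 but 4 had ranges that did not overlap. Pcdhb17, the most abundant, had 16.8 and 18.7 CPM in WT and 17.0, 18.7 and 16.6 CPM in Het-Met mice under E2 (-0.03 ± 0.11). Pcdhb9, the highest per kb, had 15.7 and 17.1 CPM against 13.8, 13.4 and 13.1 CPM (-0.27 ± 0.10), and Pcdhb10 5.47 and 7.13 CPM against 3.57, 5.21 and 3.41 CPM (-0.59 ± 0.20). In both the genotypes were apart, and these were 2 of the 3 beta genes at an unadjusted p under 0.05. The third was Pcdhb2, with 3.50 and 3.31 CPM against 2.06, 2.77 and 1.33 CPM (-0.65 ± 0.28). Pcdhb6, the lowest beta gene per kb, had 1.62 and 2.45 CPM against 0.930, 2.12 and 1.57 CPM, which overlapped. Whether beta and gamma genes differ in their response was not tested, since no test over members is valid here, and the medians of the 2 classes rest on the same 5 libraries.

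Among the alternative alpha genes, Pcdha1 had 1.71 and 1.46 CPM in WT against 0.832, 1.29 and 0.617 CPM in Het-Met mice under E2 (-0.59 ± 0.27), and Pcdha12 3.54 and 4.99 CPM against 3.33, 3.37 and 3.51 CPM (-0.27 ± 0.19). Pcdha5 had 3.50 and 2.92 CPM against 2.20, 2.77 and 1.99 CPM (-0.40 ± 0.21). All 3 were apart between genotypes, and Pcdha1 alone of them had an unadjusted p under 0.05. These genes are counted from few reads and over a minority of their exon bases in the median, and their errors are wide.

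The choroid plexus marker sum was also apart between the genotypes under E2, higher in WT (1882 and 2472 CPM) than in Het-Met mice (256 to 1532 CPM), and all 9 markers were lower in Het-Met mice at an unadjusted p under 0.05. Other marker sums were apart under E2 by far less. They were lower in Het-Met mice for hippocampal excitatory neurons (6162 to 6812 CPM against 6935 and 6985 CPM in WT), inhibitory neurons (930 to 989 CPM against 1015 and 1010 CPM) and oligodendrocyte precursors (145 to 157 CPM against 162 and 170 CPM), and higher for astrocytes (1715 to 1749 CPM against 1684 and 1710 CPM). Single markers did not all follow their sum. Of the excitatory markers, Camk2a, the most abundant, was lower in Het-Met mice (4047 to 4714 CPM against 4964 and 4949 CPM). Slc17a7 was apart the other way (1520 to 1603 CPM against 1458 and 1504 CPM), and the rest overlapped. The inhibitory marker Pvalb was also higher (33.9 to 37.2 CPM against 32.3 and 28.6 CPM). Of the 19 markers in these lists, 1, for inhibitory neurons, had an unadjusted p under 0.05, and their part in the protocadherin differences was not tested. With the choroid plexus marker level as a covariate, 8 members instead of 22 had an unadjusted p under 0.05, 7 of them Pcdhg, the Pcdhg median was -0.32, and all 22 Pcdhg genes kept a fitted value below 0. The Pcdhb median went from -0.05 to -0.27 with that covariate. Without E2-treated OVX WT replicate 2, 9 members were lower, 6 of them Pcdhg. When limma was fitted on the 5 E2-treated libraries alone, 28 members had an unadjusted p under 0.05 and 1, Pcdhgc5, was called (adjusted p = 0.0483).

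**Figure D3:**
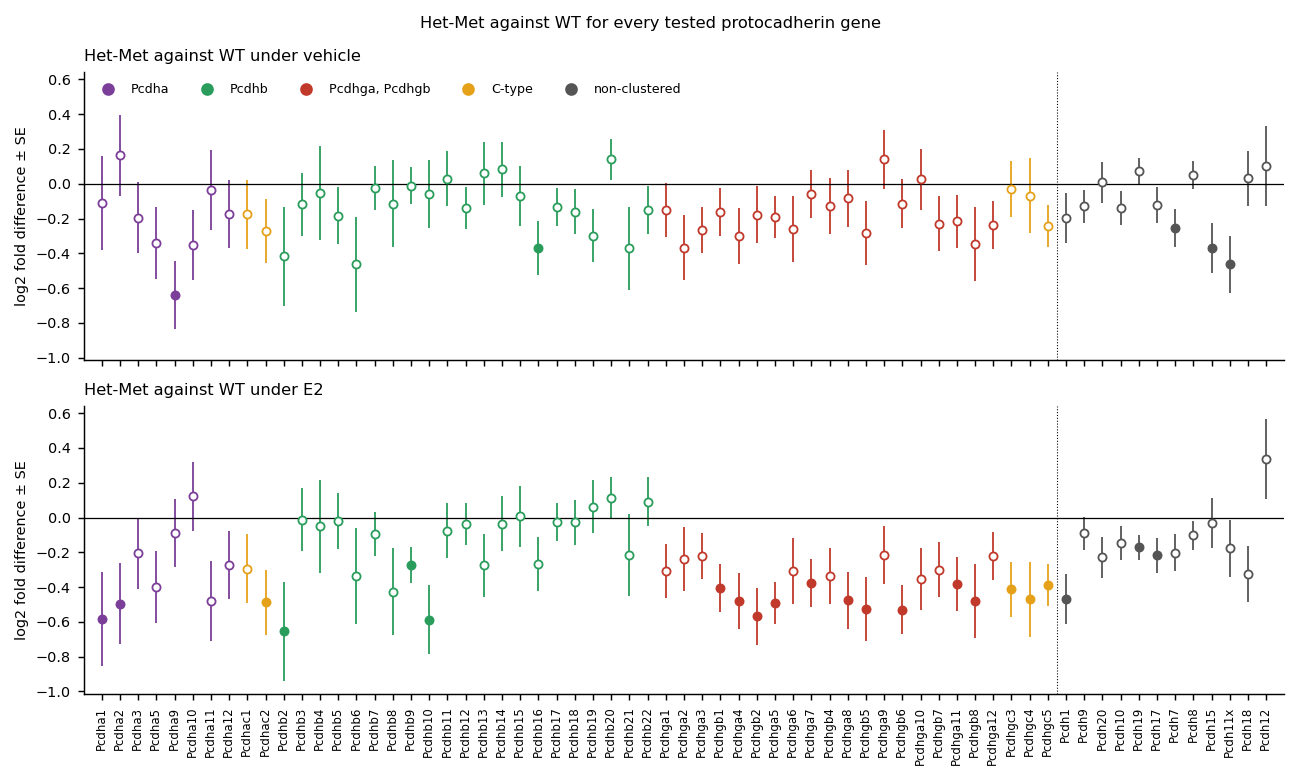
Fitted log2 fold difference of Het-Met against WT mice (points) with its SE (bars) for the 65 tested protocadherins, under vehicle (top) and E2 (bottom), with clustered genes in chromosomal order. Filled points have an unadjusted p under 0.05: 5 genes under vehicle and 22 under E2, where the Pcdhg genes lie between -0.57 and -0.22 and most Pcdhb genes near 0.

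Under vehicle, fewer members had a small p between the genotypes. limma called no member, with 0.00663% of all genes called, and neither did edgeR or DESeq2 on the recovered reads. At an unadjusted p under 0.05, 5 of 65 members were lower and 0 higher in Het-Met mice, against 4.83% of all genes lower and 5.85% higher, and edgeR and DESeq2 gave 6 each. None of the 5 was a Pcdhg gene. Pcdha9 had 3.01 and 3.52 CPM in WT and 1.61, 1.82 and 2.37 CPM in Het-Met mice, which did not overlap (-0.64 ± 0.20, adjusted p = 0.336 by limma). Pcdhb16 had 9.11 and 8.42 CPM against 5.17, 8.02 and 7.14 CPM (-0.37 ± 0.16), and the other 3 were the non-clustered genes Pcdh11x, Pcdh15 and Pcdh7 described below. Medians were -0.18 for Pcdhg, -0.19 for Pcdha, -0.12 for Pcdhb and -0.13 for the non-clustered genes, beside 0.02 over all genes, and 53 of 65 members had a fitted value below 0, where 44.7% of all genes did. The libraries were apart, with Het-Met lower, for 13 of 65 members, against 9.89% of all genes. The direction of the choroid plexus markers was the opposite of that under E2, with all 3 Het-Met libraries (1449 to 3240 CPM) above both WT libraries. With that marker level as a covariate, 2 members had an unadjusted p under 0.05 and the Pcdhg median was -0.23. Replicate 1 of the vehicle-treated OVX Het-Met mice had the lowest Pcdhg sum (256 CPM) and the highest choroid plexus sum of all libraries, and without it the Pcdhg median was -0.09. Without replicate 2 of that group 18 members were lower at an unadjusted p under 0.05, without vehicle-treated OVX WT replicate 1 there were 8, and without its replicate 3 there were 2.

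Averaged over the treatments, which pools the 2 comparisons above and is no independent evidence, 26 of 65 members were lower in Het-Met mice at an unadjusted p under 0.05 and 0 were higher, against 7.27% of all genes lower and 9.33% higher. limma called no member (0.0265% of all genes were called), and edgeR and DESeq2 called none, with 31 and 29 members at an unadjusted p under 0.05. The 26 comprised 16 of 22 Pcdhg, 3 of 10 Pcdha, 3 of 21 Pcdhb and 4 of 12 non-clustered genes. Medians were -0.28 for Pcdhg, -0.25 for Pcdha, -0.09 for Pcdhb and -0.15 for the non-clustered genes, and 62 of 65 members had a fitted value below 0, where 42.7% of all genes did. The smallest p-values belonged to Pcdhga5 (-0.34 ± 0.09, adjusted p = 0.126 by limma), Pcdhgc5 (-0.32 ± 0.08, adjusted p = 0.127 by limma) and Pcdhga4 (-0.39 ± 0.11, adjusted p = 0.143 by limma). Pcdhb2, the tested beta gene that comes first along the chromosome, had a difference of -0.54 ± 0.20 (adjusted p = 0.204 by limma). Its values were 2.64 and 3.02 CPM in vehicle-treated WT and 1.09, 2.67 and 2.55 CPM in vehicle-treated Het-Met mice, which overlapped. With the choroid plexus covariate there were 27 members and a Pcdhg median of -0.28. The marker sum averaged 606 (vehicle) and 2177 CPM (E2) in WT, and 2200 and 739 CPM in Het-Met mice. It thus nearly balanced between the genotypes over the treatments, so this covariate could hardly move the averaged comparison. Leaving out 1 library gave between 14 and 33 members, with 14 without E2-treated OVX WT replicate 2 and 15 without vehicle-treated OVX WT replicate 3, and Pcdhgb5 was called without vehicle-treated OVX Het-Met replicate 2 (-0.51, adjusted p = 0.0476 by limma).

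**Figure D4:**
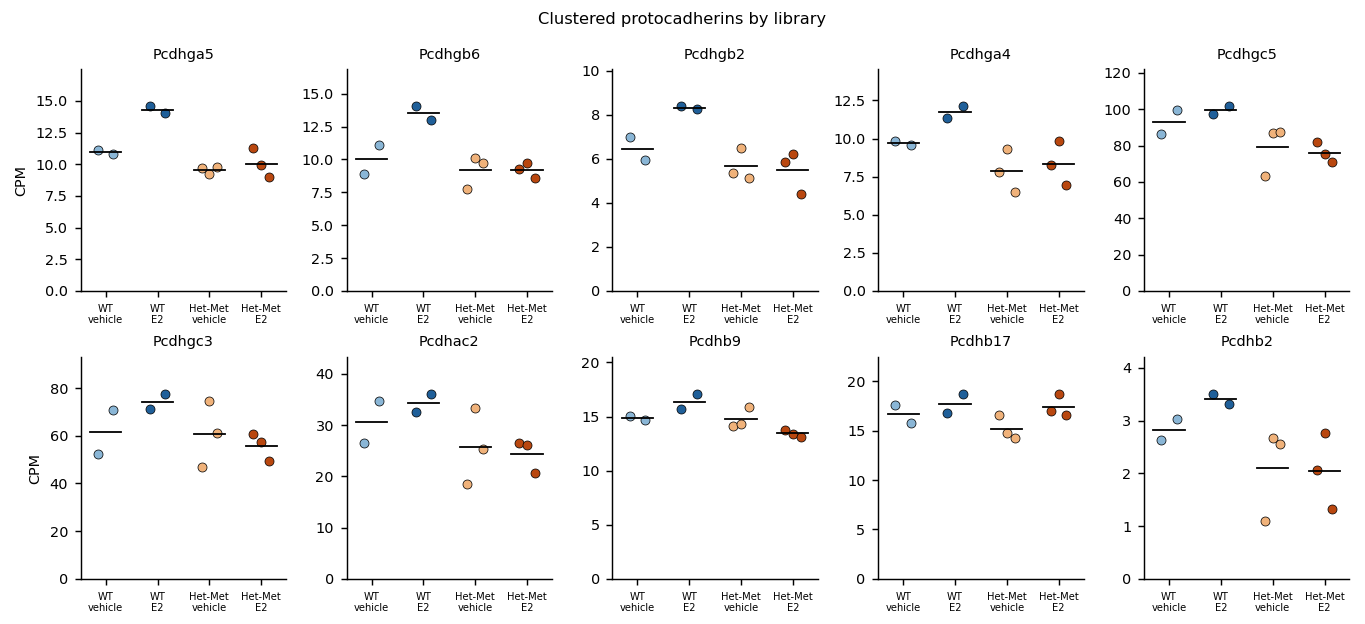
CPM in every library (points) and group mean (line) for 10 clustered protocadherins, on axes that start at 0. In Pcdhga5, Pcdhgb6, Pcdhgb2 and Pcdhga4 both E2-treated OVX WT libraries lie above all others, whereas the values of Pcdhb17 overlap between 14.2 and 18.7 CPM.

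E2 against vehicle asks what the hormone does within a genotype, and no member was called in either genotype. In OVX WT mice, where limma called 0.0133% of all genes, 4 members were higher with E2 at an unadjusted p under 0.05 and 0 lower, against 2.37% of all genes higher and 1.66% lower. edgeR and DESeq2 called none and gave 4 each. They were Pcdhga5 (0.37 ± 0.13), Pcdhgb6 (0.42 ± 0.15), Pcdhga9 (0.41 ± 0.18) and the non-clustered Pcdh18 (0.43 ± 0.18), with an adjusted p of at least 0.991 by limma in each. Pcdhga9 had 6.66 and 8.08 CPM with vehicle and 10.1 and 9.84 CPM with E2. The Pcdhg median was 0.23 with 19 of 22 genes above 0, where 51% of all genes lay below 0, against 0.13 for Pcdha, 0.07 for Pcdhb, 0.05 for the non-clustered genes and 0.00 over all genes. Choroid plexus markers were higher with E2 in these mice, and with them as a covariate 1 member had an unadjusted p under 0.05 and the Pcdhg median was 0.14. Groups of 2 libraries carry this comparison: without vehicle-treated replicate 1 the Pcdhg median was 0.11 and 1 member remained under 0.05, without vehicle-treated replicate 3 there were 9 members, and without E2-treated replicate 1 there were 0.

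In OVX Het-Met mice, E2 and vehicle libraries were mixed for most protocadherins. limma called 0% of all genes, and at an unadjusted p under 0.05 it gave 3 members, against 5.45% of all genes. edgeR and DESeq2 called none and gave 3 each. Pcdha10 was higher with E2, at 1.86, 2.21 and 2.23 CPM against 1.66, 1.06 and 1.21 CPM with vehicle (0.53 ± 0.18, adjusted p = 0.753 by limma). Pcdhga2 was higher too, at 11.1, 9.27 and 8.96 CPM against 5.46, 9.49 and 7.61 CPM, with overlap (0.38 ± 0.17), and Pcdhgb4 was lower, at 4.01, 3.09 and 3.56 CPM against 4.27, 5.40 and 4.22 CPM (-0.34 ± 0.14). The Pcdhg median was -0.03 and that of Pcdhb 0.06. Leaving out vehicle-treated replicate 2 gave 9 members, leaving out vehicle-treated replicate 1 or E2-treated replicate 2 gave 5 each, and with the choroid plexus covariate 1 was left.

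Whether the E2 difference depended on genotype was tested by the interaction, where limma called 0.0729% of all genes and no member. At an unadjusted p under 0.05 there was 1 member, Pcdh19, against 5.42% of all genes, and edgeR and DESeq2 called none and gave 1 each. For the Pcdhg genes the interaction had a median of -0.22 with 19 of 22 values below 0, where 48.6% of all genes were below 0, but none of the 22 reached an unadjusted p under 0.05. With the choroid plexus covariate this median was -0.060 with 15 of 22 below 0. The marker level itself rose with E2 in WT and fell in Het-Met mice, so it and the interaction cannot be told apart. Without vehicle-treated OVX Het-Met replicate 2 the Pcdhg median was -0.11, and without vehicle-treated OVX WT replicate 1 it was -0.13. An effect of E2 on gamma genes that differs between genotypes was therefore not shown, although the difference between genotypes carried more members under E2 than under vehicle. The Pcdha median was -0.11 and that of Pcdhb 0.08. Leaving out 1 library gave between 0 and 9 members, with 9 without vehicle-treated OVX WT replicate 3, 8 without vehicle-treated OVX Het-Met replicate 1 and 4 without E2-treated OVX Het-Met replicate 2.

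Each non-clustered gene is counted over exons of its own, and the 12 differed among themselves. Under E2 the largest difference between genotypes belonged to Pcdh1, a member of the delta-1 type that lies on the same chromosome as the clusters, at 38185914 to 38212053, and is known from epithelia and brain. Its level was 147 and 176 CPM in vehicle-treated and 197 and 189 CPM in E2-treated OVX WT mice, and 110, 157 and 161 CPM in vehicle-treated and 159, 141 and 120 CPM in E2-treated OVX Het-Met mice. As for Pcdhga5, both E2-treated OVX WT libraries lay above all others, and the difference between genotypes was -0.47 ± 0.14 under E2 (adjusted p = 0.334 by limma) and -0.33 ± 0.10 averaged (adjusted p = 0.148 by limma). Pcdh7, Pcdh9 and Pcdh11x are the other delta-1 types, long-tailed proteins that bind a phosphatase inside the cell. Pcdh7 had 83.8 and 101 CPM in vehicle-treated OVX WT and 71.4, 90.0 and 71.1 CPM in vehicle-treated OVX Het-Met mice, which overlapped (-0.25 ± 0.11), and averaged -0.23 ± 0.08. Under E2 its genotypes were apart, at 97.3 and 93.0 CPM in WT against 80.3, 78.1 and 89.6 CPM in Het-Met mice. Pcdh11x, an X-linked gene, had 14.2 and 15.8 CPM against 12.7, 12.2 and 7.98 CPM under vehicle (-0.46 ± 0.16) and 14.1 and 13.9 CPM against 11.4, 13.6 and 12.1 CPM under E2 (-0.18 ± 0.16). The genotypes of Pcdh11x did not overlap under either treatment. Pcdh9, among the highest of all, ranged from 134 to 177 CPM, and its genotype differences were -0.13 ± 0.10 under vehicle and -0.09 ± 0.10 under E2. Its genotypes overlapped under vehicle and were apart under E2.

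The delta-2 types Pcdh8, Pcdh10, Pcdh17, Pcdh18 and Pcdh19 act at synapses and in axon growth, and 2 of them had an unadjusted p under 0.05 between genotypes under E2. Pcdh17, a synaptic protein of excitatory circuits, had 91.7 and 120 CPM in vehicle-treated and 114 and 111 CPM in E2-treated OVX WT mice. OVX Het-Met mice had 90.2, 106 and 93.9 CPM with vehicle and 96.8, 92.0 and 101 CPM with E2. The genotypes were apart under E2 (-0.22 ± 0.10, adjusted p = 0.425 by limma) and overlapped under vehicle. Pcdh19, an X-linked gene whose mutation causes epilepsy in females, had in OVX WT mice 111 and 117 CPM with vehicle and 123 and 128 CPM with E2. OVX Het-Met mice had 124, 125 and 111 CPM with vehicle and 108, 109 and 117 CPM with E2. It was thus apart between genotypes under E2 (-0.17 ± 0.07), and the E2 difference was 0.14 ± 0.08 in WT and -0.11 ± 0.07 in Het-Met mice, an interaction of -0.25 ± 0.10 (adjusted p = 0.818 by limma). Pcdh8, which neuronal activity induces, ranged from 56.7 to 69.2 CPM with all genotype comparisons overlapping (-0.10 ± 0.08 under E2). Pcdh10, which takes part in synapse elimination, had 136 and 136 CPM in WT against 131, 118 and 120 CPM in Het-Met mice under E2, apart (-0.15 ± 0.10). Pcdh18 was low, at 7.90 and 6.62 CPM in E2-treated OVX WT mice against 5.09 and 5.40 CPM in vehicle-treated OVX WT mice.

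The remaining 3 genes belong to other types. Pcdh20 was the highest per kb and ranged from 95.1 to 145 CPM, with a genotype difference of -0.23 ± 0.12 under E2 and overlapping libraries. Pcdh15, a component of the tip links of hair cells, had 35.6 and 28.4 CPM in WT against 25.6, 27.3 and 21.1 CPM in Het-Met mice under vehicle, apart (-0.37 ± 0.14), and overlapped under E2 (-0.03 ± 0.14). Pcdh12, an endothelial protocadherin, was the one non-clustered gene with a fitted value above 0 in the averaged comparison (0.22 ± 0.16), at 0.673 and 0.387 CPM in WT and 0.930, 0.738 and 0.711 CPM in Het-Met mice under E2, where a single read is worth 0.0430 to 0.0505 CPM. The summed level of 5 endothelial markers lay between 123 and 167 CPM in all libraries.

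**Figure D5:**
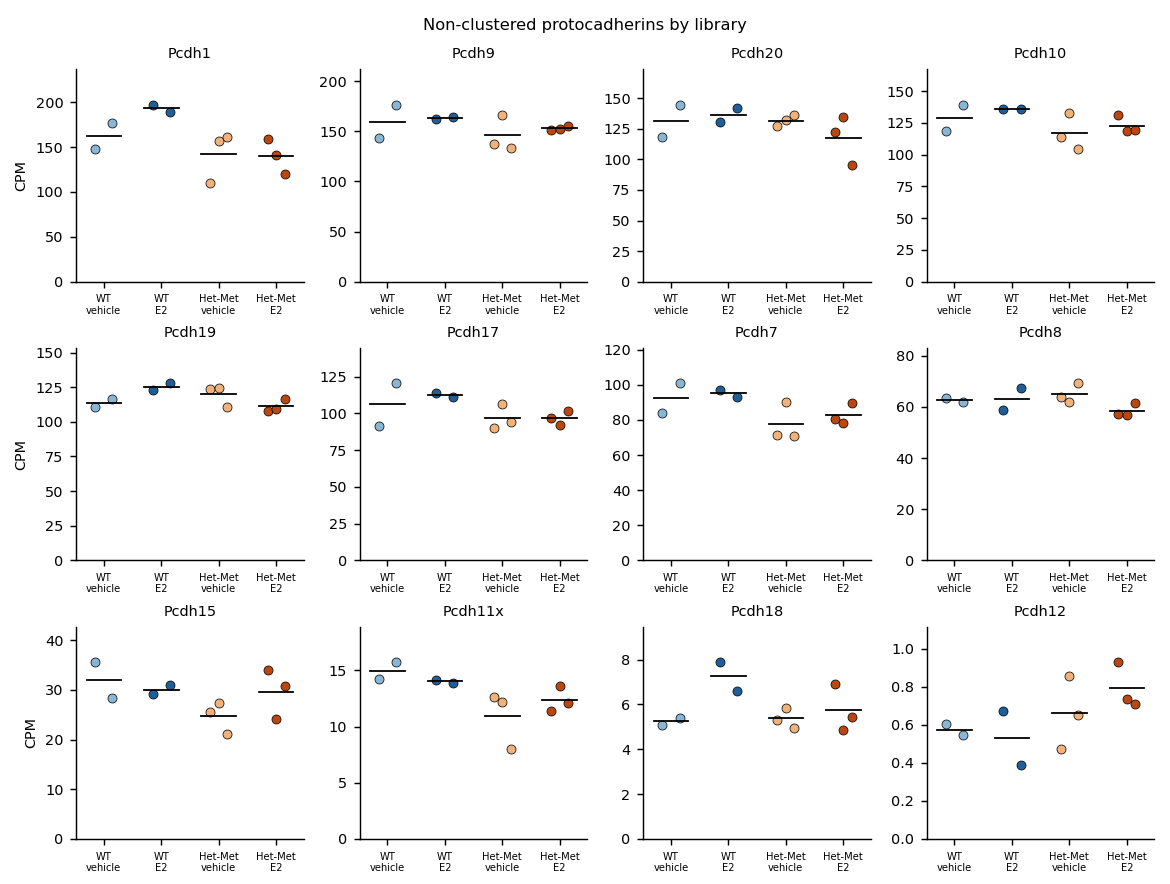
CPM in every library (points) and group mean (line) for the 12 non-clustered protocadherins, on axes that start at 0. Both E2-treated OVX WT libraries of Pcdh1 lie above all others, at 197 and 189 CPM, and Pcdh8 stays between 56.7 and 69.2 CPM throughout.

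For 9 of the 12 non-clustered genes RefSeq gave the sequence before the start of the gene, and its last 250 bases were searched on both strands, in GRCm38.p6, for the short recognition element of the oestrogen receptor (GGTCA) and that of CREB (TGACG), since E2 and BDNF are the signals the groups differ in. None of the 9 held the oestrogen receptor element, which 35.2% of all 32851 promoters of this length held, nor the full oestrogen response element (GGTCA, then 3 bases, then TGACC), which 0.0639% held. The CREB element was found in 2 of the 9, Pcdh9 and Pcdh10, against 17.8% of all promoters, and its full form TGACGTCA in 0 of the 9, against 1.55%. Shown are Pcdh17, Pcdh8 and Pcdh10. Pcdh17 was apart between genotypes under E2, and Pcdh8, also on chromosome 14, was not. The 2 CREB elements of Pcdh10 are in capitals. Pcdh17 (chr14:84443313-84443562, plus strand), Pcdh8 (chr14:79771313-79771562, minus strand) and Pcdh10 (chr3:45378148-45378397, plus strand) are written 5′ to 3′ and end at the base before the start of the gene.
Pcdh17: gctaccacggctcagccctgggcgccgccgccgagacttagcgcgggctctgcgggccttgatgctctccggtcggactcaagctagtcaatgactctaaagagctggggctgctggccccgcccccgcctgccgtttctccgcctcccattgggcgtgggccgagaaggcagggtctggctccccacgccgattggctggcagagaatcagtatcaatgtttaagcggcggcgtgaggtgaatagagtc
Pcdh8: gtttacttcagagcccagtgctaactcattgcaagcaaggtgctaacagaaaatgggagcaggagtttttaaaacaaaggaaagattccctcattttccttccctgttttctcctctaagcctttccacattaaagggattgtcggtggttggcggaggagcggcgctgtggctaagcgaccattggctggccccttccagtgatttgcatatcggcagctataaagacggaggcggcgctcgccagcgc
Pcdh10: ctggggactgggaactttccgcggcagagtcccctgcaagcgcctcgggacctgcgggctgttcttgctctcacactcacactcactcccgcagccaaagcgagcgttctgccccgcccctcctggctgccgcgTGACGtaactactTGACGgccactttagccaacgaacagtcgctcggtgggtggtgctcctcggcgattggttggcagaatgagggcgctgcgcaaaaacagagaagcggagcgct
A match of letters is a description of the window and not a binding site.

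Genes around the clusters were examined in the same fit. Within 1 Mb on either side, 33 genes other than protocadherins were tested. Pcdh1 and Pcdh12, which also lie within 1 Mb after Pcdhg, are not among them. In the averaged genotype comparison the median log2 fold difference of the 33 was 0.08, with 11 of 33 below 0, where 42.7% of all genes were. At an unadjusted p under 0.05, 4 were lower and 9 higher, against 7.27% of all genes lower and 9.33% higher. The 21 before Pcdha had a median of 0.15, the 11 after Pcdhg 0.01, and the gene between Pcdhb and Pcdhg 0.09. Under E2 the median of the 33 was 0.07, again with 11 below 0, and for E2 against vehicle in WT mice it was -0.04 with 22 below 0.

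Genes that act with protocadherins were read against the shares of all genes in the averaged comparison, 7.27% lower and 9.33% higher at an unadjusted p under 0.05. Of 14 genes for the CTCF and cohesin machinery and the chromatin silencers that set promoter choice, 1 was higher and 1 lower in Het-Met mice at that threshold, which is near those shares, and the list median was 0.01. They were the cohesin subunit Stag1 (0.15 ± 0.06) and the cohesin loader Nipbl (-0.18 ± 0.06). Of 12 intracellular partners, which include the kinases and the WAVE complex that the cytoplasmic tails bind or inhibit, 1 was higher, the WAVE subunit Brk1 (0.19 ± 0.05), with a list median of 0.01. None of the 7 genes for the proteases that cut protocadherins, Adam10 and the gamma-secretase subunits, had an unadjusted p under 0.05, and their median was 0.04. None of these lists held a called gene.

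The other cadherins also had fitted values below 0. Of 8 tested genes for large cadherins of the Fat, Dachsous and Celsr families, all 8 had a fitted value below 0 in the averaged comparison (median -0.18), and 4 were lower at an unadjusted p under 0.05, the planar polarity genes Fat1 (-0.28 ± 0.07), Fat3 (-0.22 ± 0.09), Celsr2 (-0.15 ± 0.06) and Celsr1 (-0.23 ± 0.11). Fat2 had an interaction of 0.73 ± 0.32. Of 11 classic cadherins, all 11 were below 0 (median -0.15), with 4 at an unadjusted p under 0.05: Cdh12 (-0.43 ± 0.12), Cdh6 (-0.59 ± 0.19), Cdh2, the N-cadherin of synapses (-0.17 ± 0.07), and Cdh8 (-0.15 ± 0.06). None was called. Removing the trend with exon length from each library left the Pcdhg median of the averaged comparison at -0.28 and brought the non-clustered median from -0.15 to -0.08.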

How the data were processed

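RNA sequencing of mouse vHpc was analysed in 10 libraries of 4 groups, taken from the sample labels. The authors aligned 75-base reads with TopHat2 to mm10, counted them per gene and deposited CPM, each library summing to 1000000. Values stood at whole multiples of a single read (100% in each library), so whole reads were recovered from the deposited CPM for edgeR and DESeq2. The library kit was stranded, but whether counting used strand and the counter's rule for shared exons are not given in the sources used here. The intervals and limits from reads cover counting error only, with 3 reads taken as the limit for a count of 0.

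Genes averaging 0.5 CPM or more (15081) were tested with limma 3.58.1 (R 4.3.3) on log2(CPM + 0.5), as means of the 4 groups and with its trend option. The residual degrees of freedom were 6 and the prior ones 8.90. Fold changes are on that scale, which understates those of low genes. Tests were two-sided, with p-values adjusted by Benjamini-Hochberg over all genes, and calls needed an adjusted p under 0.05 and a fold above 1.3. Since each library is a pool of 2 animals, p-values measure the spread between pools.

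Exon lengths, private exon bases (those of no other annotated gene on the same strand) and 75-base words came from GENCODE vM21 on GRCm38, which gave 98.5% of genes a length. Figures were drawn with matplotlib 3.10.9. Named were all non-clustered members, up to 6 members with the smallest p in each comparison, the highest 2 and the lowest of each class per kb, the members beside the 0.5 CPM limit, Pcdhb2, and list genes with an unadjusted p under 0.05 in the averaged or interaction comparison. A few others, such as Pcdhgc4 and Pcdhgb5, were named after their values were seen. The members, lists and markers were chosen with earlier results of these data known. One gene of the list of promoter choice regulators is not reported here. Alternatives were pseudocounts of 0.1 and 1, no filter, at least 2 CPM, quantile normalization, median-of-ratios scaling, a replicate block, the compared libraries alone, edgeR 4.0.16, DESeq2 1.42.0, removal of the length trend, and each library left out. A choroid plexus covariate and removal of the GC trend were added after seeing the data.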

Additional observations from a re-analysis of the deposited data

Results flagged for a closer look

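Pcdh19, the X-linked delta-2 protocadherin, is listed here because the test of whether its E2 difference depended on genotype gave an unadjusted p of 0.0310. The E2 difference was 0.14 ± 0.08 in OVX WT and -0.11 ± 0.07 in OVX Het-Met mice (log2 scale, SE), and the interaction was -0.25 ± 0.10 (adjusted p = 0.818 by limma). It was the only one of 65 members under 0.05, against 5.42% of all genes. With 2 or 3 libraries a group, no search for single outlying libraries could be made.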

How the results depend on the processing

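The number of members with an unadjusted p under 0.05 was 4 for E2 in WT, 3 for E2 in Het-Met, 5 and 22 between genotypes under vehicle and E2, 1 for the interaction and 26 averaged over treatments. It became 7 for E2 in WT with the compared libraries alone, 3 under vehicle with the length trend removed and 8 with the GC trend removed. With the choroid plexus covariate it became 1 for E2 in WT, 1 for E2 in Het-Met, 2 under vehicle and 8 under E2. Leaving out a library gave 0 to 9 for E2 in WT, 3 to 9 for E2 in Het-Met, 2 to 18 under vehicle, 9 to 24 under E2, 0 to 9 for the interaction and 14 to 33 averaged.

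The Pcdhb median, 0.07 for E2 in WT, 0.06 for E2 in Het-Met, -0.12 and -0.05 between genotypes under vehicle and E2 and 0.08 for the interaction, became 0.17, -0.034, -0.014, -0.27 and -0.18 with the choroid plexus covariate, and the interaction 0.0038 at a mean of at least 2 CPM. Leaving out a library gave -0.033 to 0.15, 0.014 to 0.13, -0.21 to -0.058, -0.14 to -0.0046 and -0.042 to 0.11 in the same order. The cause of these moves was not tested.

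No pairing of libraries by replicate number was seen: of 12 same-numbered pairs 0 had a correlation of deviations over 0.1. This check could not exclude a pairing, given 2 or 3 libraries a group. With a replicate block 10 members were under 0.05 under vehicle and 0 for the interaction, and the Pcdhb median for E2 in WT was 0.011. For the 61 results of a single gene under 0.05, all alternatives kept the direction. These results were picked for their small p in the same libraries. Leaving out a library of a group that is not compared changes the error but not the difference, so such settings could not reverse a direction. Under the alternatives other than the choroid plexus covariate and the GC trend, 1069 values stayed under 0.05 and 180 did not, and under those 2 the numbers were 92 and 30. The averaged comparison and the interaction use all libraries, so fitting the compared libraries alone was not run for them.

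With 2 or 3 libraries a group the standard errors of low genes are wide, and Pcdha and Pcdhg genes, which share exons, were counted by a rule not given in the sources used here.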
